A study of Homo sapiens with 12 samples.

Results

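The BCL2 family holds the proteins that decide whether the outer mitochondrial membrane is opened during apoptosis. The members examined were 10 genes listed by symbol: the survival proteins BCL2, MCL1 and BCL2A1, the pore formers BAX and BAK1, and the BH3-only proteins BCL2L11, BBC3, PMAIP1, BID and BAD. They were read by symbol from a count table of 28278 genes, which held all 10, and 9 of them passed the filter on low counts. The samples were K562 cells, a human erythroleukaemia line, labelled WT or HRG1-KO. HRG1 is a heme transporter encoded by SLC48A1. Each genotype was either left as an untreated control or given 0.75 mM sodium butyrate, a histone deacetylase inhibitor, first at 24 h after plating and once more 48 h on, and all cells were harvested 6 h after that last addition. The series also names day 8 of differentiation, for untreated and treated libraries alike. The hours given do not by themselves add up to that day. There were 4 groups of 3 libraries (untreated WT, treated WT, untreated HRG1-KO and treated HRG1-KO). How the knockout was made, how many clones it comprises and whether replicates were separate cultures are not given in the sources used here, so the p-values measure only the spread between these libraries. A difference between WT and KO cells is therefore a difference between these cell populations, in which the transporter and any other difference between the lines cannot be told apart.

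Survival proteins of this family bind and hold the pore formers and the BH3-only proteins. BH3-only proteins are raised or activated by stress, occupy the groove of the survival proteins or bind the pore formers directly, and BAX and BAK1 then oligomerise in the mitochondrial membrane and release cytochrome c. Erythroid cells are known to lean on the survival homologue BCL2L1, and in chronic myeloid leukaemia cells such as K562 the BCR-ABL1 kinase is known to hold BCL2L11 (BIM) down. Histone deacetylase inhibitors are known to shift several of these genes in many cell types. K562 cells lack functional p53, the classical activator of BBC3 (PUMA) and PMAIP1 (NOXA).

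Libraries held 19963594 to 30348538 counts, and a limit of 3 counts corresponded to 0.0953 to 0.162 CPM (counts scaled to the library total, with TMM correcting for composition). SLC48A1 held 1357 to 1945 counts in the 6 WT libraries and 55 to 313 in the 6 KO libraries, so its level went with every label. Of 8 erythroid markers all were present, with a summed level of 5709 to 11845 CPM in untreated WT, 15865 to 33213 in treated WT, 3308 to 5973 in untreated KO and 4133 to 5695 in treated KO. Among markers of other lineages, PF4 (megakaryocyte) and MS4A1 (B cell) had 0 counts in every library. The 4 megakaryocyte markers summed to 14.6 to 54.4 CPM in untreated and 75.7 to 211 CPM in treated libraries, and the 3 stromal markers to 2.03 to 4.94 CPM untreated and 43.9 to 156 CPM treated. These sums mix unlike genes. ITGA2B (megakaryocyte) had means of 36.2, 136, 11.9 and 56.7 CPM in untreated WT, treated WT, untreated KO and treated KO. GP1BA (megakaryocyte) had means of 2.86 CPM in untreated WT, 4.46 CPM in treated WT and 28.1 CPM in untreated KO, and its KO mean did not rise with butyrate. COL1A1 made up most of the stromal sums, with means of 3.05, 80.8, 3.08 and 96.9 CPM in the same order. The 5 myeloid markers summed to 3.37 to 17.1 CPM untreated and 18.7 to 28.95 CPM treated, and the 5 lymphoid markers to 4.07 to 24.3 CPM over all libraries. LYZ had the highest mean of the myeloid markers in each group, at 14.5, 20.3, 5.12 and 23.9 CPM in the same order. The part of these marker differences in the results was not tested, and in bulk RNA fewer cells of a type and less RNA per cell cannot be told apart.

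BCL2L11 (BIM, a BH3-only protein that binds all survival members and can activate the pore formers) differed most between the groups. The gene lies at chr2:111119378-111168447 on the plus strand (GENCODE 29, GRCh38). Untreated WT libraries held 20.3, 22.6 and 24.5 CPM in replicates 1, 2 and 3, and treated WT libraries 72.0, 40.3 and 32.5 CPM. Untreated KO libraries held 97.7, 109 and 97.3 CPM, and treated KO libraries 87.4, 76.3 and 75.0 CPM. Every KO library was above every WT library, the nearest being treated WT replicate 1, and the groups of 3 overlapped in none of the 4 comparisons.

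In untreated cells BCL2L11 was 4.50-fold higher in KO than in WT, at 101 ± 6.71 against 22.5 ± 2.12 CPM (SD, n = 3). This was a log2 fold change of 2.17 (SE 0.26, adjusted p 9.25e-05 by edgeR's quasi-likelihood fit with Benjamini-Hochberg correction), and it passed the threshold of 0.05 in all 6 fits that left out 1 library, between 2.09 and 2.22. It was the 1 member of 9 tested that passed in this comparison, in which 22.6% of all 15805 tested genes passed. A call in 1 of 9 members does not set the family apart from that background. After butyrate the KO excess was 1.65-fold, at 79.6 ± 6.80 against 48.3 ± 20.9 CPM (SD, n = 3), which did not pass (log2 fold change 0.72, SE 0.25, edgeR adjusted p 0.0630). It passed with the replicate number as a block (adjusted p 0.0276) and without treated WT replicate 1, the highest treated WT library (log2 fold change 1.12, adjusted p 0.00145).

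Within WT, butyrate raised BCL2L11 by 1.10 on the log2 scale (2.14-fold, SE 0.25, edgeR adjusted p 0.0439). The rise was seen in each numbered pair, at 1.82, 0.83 and 0.40 for replicates 1, 2 and 3 as differences of log2 CPM. The call was lost when untreated WT replicate 1, 2 or 3 or treated WT replicate 2 was left out (adjusted p 0.166, 0.153, 0.0972 and 0.0956). Without treated WT replicate 1 the rise was 0.68 (adjusted p 0.0403), and without treated WT replicate 3 it was 1.31 (adjusted p 0.0317). The call was also lost without all libraries numbered 1 (0.61, edgeR adjusted p 0.0629). It was lost too when only the 2 groups compared were fitted (1.11, edgeR adjusted p 0.156). In KO cells the treated libraries were all below the untreated ones, but the log2 fold change of -0.35 (SE 0.25, edgeR adjusted p 0.476) did not pass. Subtracting the WT log2 fold change from that in KO gave -1.45 on the log2 scale (SE 0.36, unadjusted p 0.00141), which did not pass over all genes (edgeR adjusted p 0.418). With the replicate block it was -1.41 (adjusted p 0.165), and by the DESeq2 Wald test -1.43 (adjusted p 0.0494).

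**Figure D1:**
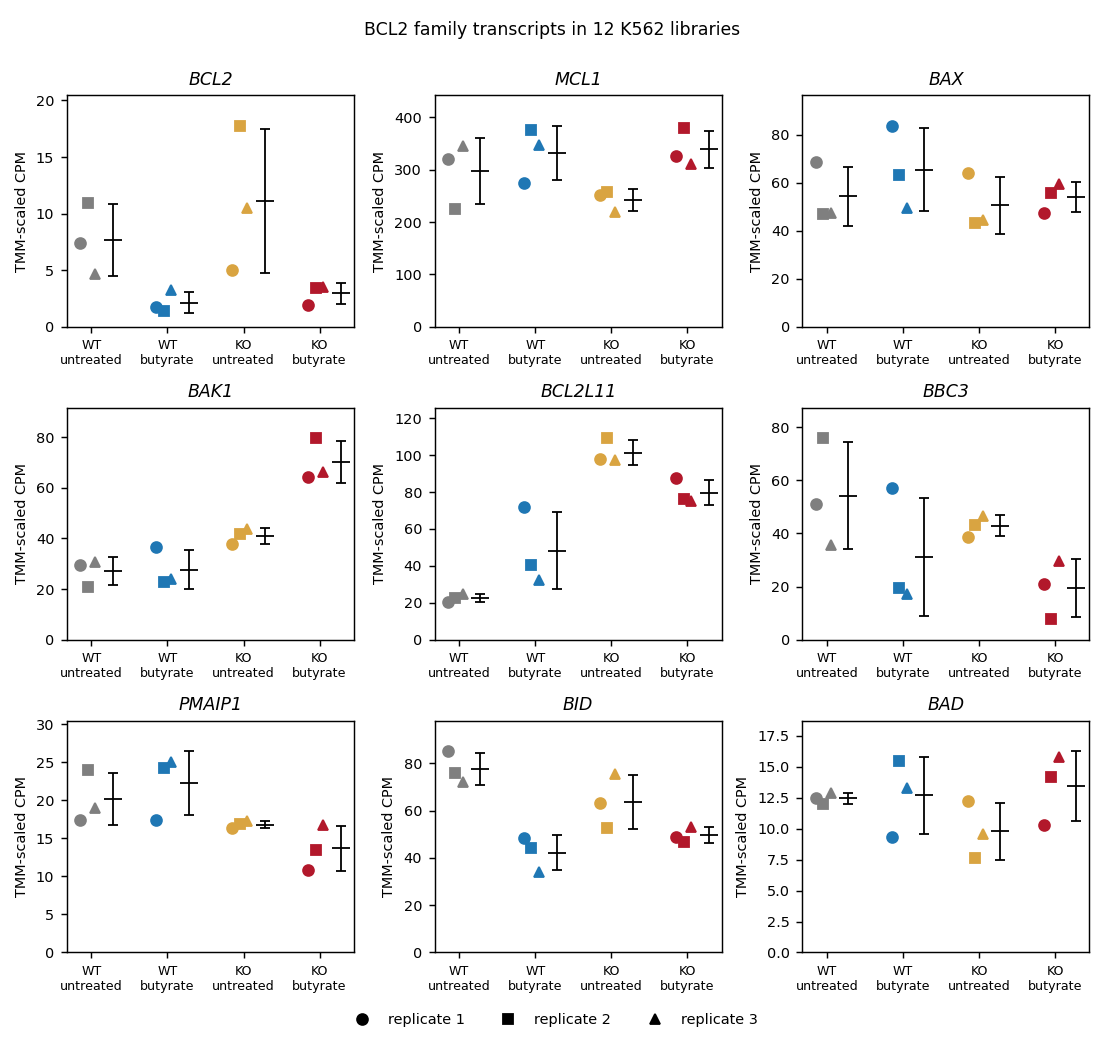
Level of 9 BCL2 family transcripts in TMM-scaled CPM on a linear axis from 0, by group (untreated and butyrate-treated WT and KO). Each symbol is 1 library, its shape gives the replicate number, and the bar beside each group is the mean ± SD of 3 libraries. BCL2L11 lies between 20.3 and 24.5 CPM in untreated WT and between 97.3 and 109 CPM in untreated KO.

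The sequence just before the start of BCL2L11 is shown because this member had the largest difference between genotypes, and that of BAK1 because it was the other member called between genotypes. RefSeq promoter windows (GRCh38.p14) were at hand for 9 of the 10 members, and bases lying in any GENCODE 29 exon of the gene were left out of the 2 windows printed. Both follow the RefSeq start site, and the BCL2L11 window lies inside the longer gene span that GENCODE 29 gives. Capitals mark matches to the motifs, which were searched on both strands. The FOXO motif was searched as TGTTTAC and the GC box, bound by SP1-type factors, as GGGCGG. The E-box was searched as CACGTG, the GATA motif of erythroid factors as AGATAA, the cyclic AMP response element (CRE) as TGACGTCA and the promoter element known as the TATA box as TATAAA. None of these overlapped another in the windows shown.
BCL2L11, chr2:111120664-111120913, plus strand: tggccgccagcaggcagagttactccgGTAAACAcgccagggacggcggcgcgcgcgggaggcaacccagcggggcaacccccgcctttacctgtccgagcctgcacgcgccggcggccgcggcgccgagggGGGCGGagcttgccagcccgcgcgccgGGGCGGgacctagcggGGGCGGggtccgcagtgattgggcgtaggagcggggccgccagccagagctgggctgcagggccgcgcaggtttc
BAK1, chr6:33580294-33580526, minus strand: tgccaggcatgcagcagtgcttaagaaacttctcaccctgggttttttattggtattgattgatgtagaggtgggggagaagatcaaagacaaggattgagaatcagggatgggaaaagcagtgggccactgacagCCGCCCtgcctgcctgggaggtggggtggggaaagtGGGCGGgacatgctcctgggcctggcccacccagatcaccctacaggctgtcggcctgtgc

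The 250 bases before BCL2L11 held 1 match to the FOXO motif, on the reverse strand as GTAAACA, and 3 matches to the GC box. Over 27305 genes, 2.98% of windows of this length held the FOXO motif and 42.3% the GC box. The 233 bases before BAK1 held 2 GC boxes, which 40.0% of windows of that length held, and no match to the FOXO motif (held by 2.78%). Neither window held the E-box, GATA, CRE or TATA letters. For windows of 250 and 233 bases these were held by 6.49% and 5.97% (E-box), 9.37% and 8.94% (GATA), 1.77% and 1.57% (CRE) and 11.1% and 10.8% (TATA) of genes. FOXO3, whose protein binds the FOXO motif and is a known activator of BCL2L11, was at 53.5 ± 1.22 CPM in untreated WT and 90.8 ± 23.1 CPM in untreated KO (SD, n = 3). This rise of 0.76 on the log2 scale passed (SE 0.22, edgeR adjusted p 0.0250), but not without untreated KO replicate 2 (log2 fold change 0.51, adjusted p 0.144) nor without any 1 of the 3 untreated WT libraries. A match of letters is a description of the window, and binding was not measured.

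BCL2L11 was set beside its neighbours, since genes of a chromosome segment can differ together between cell lines. MIR4435-2HG, a long noncoding RNA on the opposite strand, shares 727 bases of annotated exon with BCL2L11, and whether the counting used strand is not stated. Its own log2 fold change between KO and WT was 0.06 in untreated cells (adjusted p 0.855) and 0.03 after butyrate (adjusted p 0.950). The 8 tested genes within 1000 kb of BCL2L11 had a median of 0.33 in untreated cells, with 1 called higher, and of 0.26 in treated cells, with 0 called. The 979 other tested genes of chromosome 2 had medians of 0.10 and 0.09, and 22.6% and 19% of all tested genes were called. The nearest of the 8 upstream was ACOXL, with 1.98 (adjusted p 0.0938) and 2.06 (adjusted p 0.0698) in untreated and treated cells, and the 1 called was LINC01106 (5.06, adjusted p 0.0127), both named after their values were seen. Their part in the BCL2L11 difference was not tested.

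BAK1 (a pore former resident in the mitochondrial outer membrane, at chr6:33572547-33580293 on the minus strand) held 29.7, 20.8 and 30.8 CPM in untreated WT replicates 1, 2 and 3, and 36.6, 22.6 and 23.9 CPM in treated WT. Untreated KO libraries held 37.7, 41.6 and 43.7 CPM, and treated KO libraries 64.3, 79.6 and 66.4 CPM. The 3 treated KO libraries were the highest of the 12, and the WT groups overlapped each other. In treated cells BAK1 was 2.53-fold higher in KO, at 70.1 ± 8.28 against 27.7 ± 7.73 CPM (SD, n = 3). The log2 fold change of 1.34 (SE 0.23, edgeR adjusted p 0.00154) passed whichever of the 6 libraries was left out, the highest adjusted p being 0.0105 without treated WT replicate 2. It was the 1 member of 9 called in this comparison, where 19% of all tested genes were called.

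In untreated cells the KO libraries were also all above the WT libraries for BAK1, with a log2 fold change of 0.60 (SE 0.23) that did not pass (edgeR adjusted p 0.0791). It passed under the block (adjusted p 0.0493), and without the 4 libraries numbered 1 the log2 fold change was 0.71 (adjusted p 0.0415). The log2 fold change of BAK1 with butyrate was 0.77 in KO (SE 0.23, edgeR adjusted p 0.0854, 0.0396 with the block) and 0.03 in WT (SE 0.23, adjusted p 0.969), the latter turning to -0.17 without the libraries numbered 1. The difference of these effects, 0.74 (SE 0.32), did not pass (unadjusted p 0.0389, edgeR adjusted p 1.00). The 45 tested genes within 1000 kb had a median log2 fold change of 0.45 in untreated and 0.72 in treated cells. Of these 45, 6 were called higher and 0 lower in each condition, where 22.6% and 19% of all tested genes were called. The 816 other tested genes of chromosome 6 had medians of 0.08 and 0.04. Whether BAK1 and its neighbours share a cause of the difference was not tested. BAK1 shares 91 exonic bases with GGNBP1, a pseudogene on the opposite strand.

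**Figure D2:**
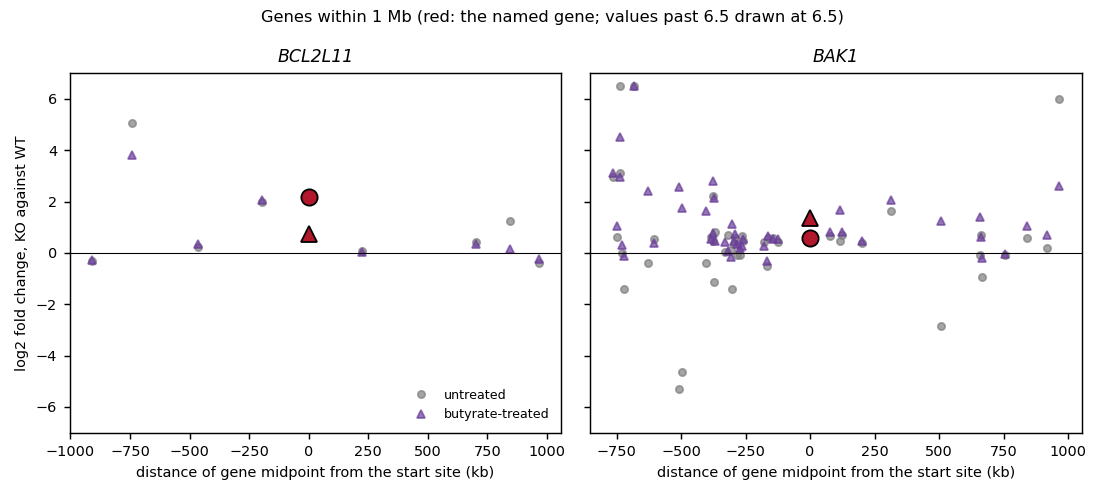
Log2 fold change of KO against WT for tested genes within 1000 kb of BCL2L11 (8 genes) and BAK1 (45 genes), against the distance of each gene's midpoint from the member's start site in kb along the chromosome. Circles are untreated and triangles butyrate-treated cells, large red symbols are the member itself, and values above 6.5 are drawn at 6.5. The medians of the neighbours are 0.33 and 0.26 around BCL2L11 and 0.45 and 0.72 around BAK1, in untreated and treated cells.

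BCL2 (the founding survival protein, at chr18:63123346-63320128 on the minus strand) held fewer CPM in every treated library than in any untreated library of the same genotype. Untreated WT libraries held 7.36, 10.9 and 4.64 CPM and treated WT libraries 1.76, 1.41 and 3.21 CPM, in replicates 1, 2 and 3. Untreated KO libraries held 5.03, 17.8 and 10.5 CPM and treated KO libraries 1.88, 3.47 and 3.48 CPM. The genotypes overlapped under both conditions, and the untreated groups spread widely, with replicate 2 highest in each. With butyrate the log2 fold change was -1.84 in WT (SE 0.53, edgeR adjusted p 0.0933) and -1.91 in KO (SE 0.52, adjusted p 0.0676), so neither passed. With the replicate block both passed (-1.82, adjusted p 0.0338 in WT, and -1.84, adjusted p 0.0241 in KO), as they did by the DESeq2 Wald test (adjusted p 0.0128 and 0.00704). Without the libraries numbered 1 the KO value passed as well (-2.04, adjusted p 0.0275).

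The difference of the butyrate effects for BCL2 was -0.08 (SE 0.73, edgeR adjusted p 1.00), an SE too wide to say that the genotypes responded alike. Between genotypes BCL2 differed by 0.54 (SE 0.51, adjusted p 0.497) without butyrate and 0.46 (SE 0.52, adjusted p 0.599) with it. These positive values stand beside medians of -0.53 and -0.63 for the 188 other tested genes of chromosome 18.

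MCL1 (a short-lived survival protein, at chr1:150574551-150579738 on the minus strand) held 321, 225 and 345 CPM in untreated WT and 275, 376 and 347 CPM in treated WT, in replicates 1, 2 and 3. Untreated KO libraries held 252, 257 and 219 CPM, and treated KO libraries 326, 379 and 312 CPM. The treated KO libraries were all above the untreated ones, whereas the WT groups overlapped. The log2 fold change of 0.48 in KO (SE 0.20, edgeR adjusted p 0.208) did not pass, nor did the value in WT (0.16, SE 0.20, adjusted p 0.728) or either genotype difference (-0.29, adjusted p 0.340, and 0.03, adjusted p 0.951). BCL2A1 (a survival protein of activated leukocytes, at chr15:79960889-79971446 on the minus strand) had 5 counts in untreated WT replicate 3 and 0 in the other 11 libraries, which allows up to 0.0953 to 0.162 CPM in those. It was not tested.

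BID (a BH3-only protein that death receptor signalling activates through caspase-8, at chr22:17734138-17774770 on the minus strand) was the other member called for butyrate in WT. Untreated WT libraries held 85.2, 76.1 and 72.0 CPM and treated WT libraries 48.4, 44.2 and 34.1 CPM. Untreated KO libraries held 63.2, 52.5 and 75.5 CPM and treated KO libraries 49.0, 46.9 and 53.2 CPM. The WT groups stood apart, and the KO groups overlapped. BID fell by 0.88 on the log2 scale in WT (SE 0.19, edgeR adjusted p 0.0361), a 1.84-fold lower level. The call held without treated WT replicate 1 (adjusted p 0.0185) and was lost without any of the other 5 libraries. Its adjusted p was 0.139, 0.111 and 0.0765 without untreated WT replicate 1, 2 or 3, and 0.124 and 0.127 without treated WT replicate 2 or 3. When only the 2 groups compared were fitted, its edgeR adjusted p was 0.112. In KO the value was -0.36 (SE 0.19, edgeR adjusted p 0.327). The difference of the effects was 0.52 (SE 0.27, adjusted p 1.00), so a weaker response in KO was not shown.

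With BCL2L11 higher and BID lower, 2 of 9 members were called for butyrate in WT, where 2.35% of all tested genes were called. With the replicate block 3 were called (8.61% of all genes), by the DESeq2 Wald test 3 (8.43% of all genes), and 3 of the 9 had groups that did not overlap (21.7% of all genes). For butyrate in KO 0 of 9 members passed the edgeR test (3.4% of all genes), 4 had an unadjusted p under 0.05 (19.8% of all genes), and the DESeq2 Wald test called 2 (9.74% of all genes). The blocked fit called 2 (11.7% of all genes), and 5 of 9 had groups that did not overlap (24.4% of all genes). For genotype, the blocked fit called 2 of 9 in untreated cells (33% of all genes) and 3 of 9 in treated cells (29.2% of all genes), and DESeq2 called 1 and 3 of 9 (28.5% and 25.2% of all genes). The groups did not overlap for 3 members in each case (42.4% and 33.9% of all genes). The difference of the butyrate effects passed for 0 of 9 members and for 0% of genes in edgeR, with 2 members at an unadjusted p under 0.05 (4.16% of all genes). It passed for 1 member (BCL2L11) by the DESeq2 Wald test (0.59% of all genes), and for 0 members and 0.019% of genes with the block.

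The members' median log2 fold change was 0.03 for butyrate in WT and -0.30 in KO, beside 0.02 and 0.00 for all tested genes. It was -0.26 for KO against WT in untreated and 0.08 in treated cells, beside 0.02 and -0.0022. The 2 butyrate comparisons use different libraries, while each shares its groups with the genotype comparisons.

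**Figure D3:**
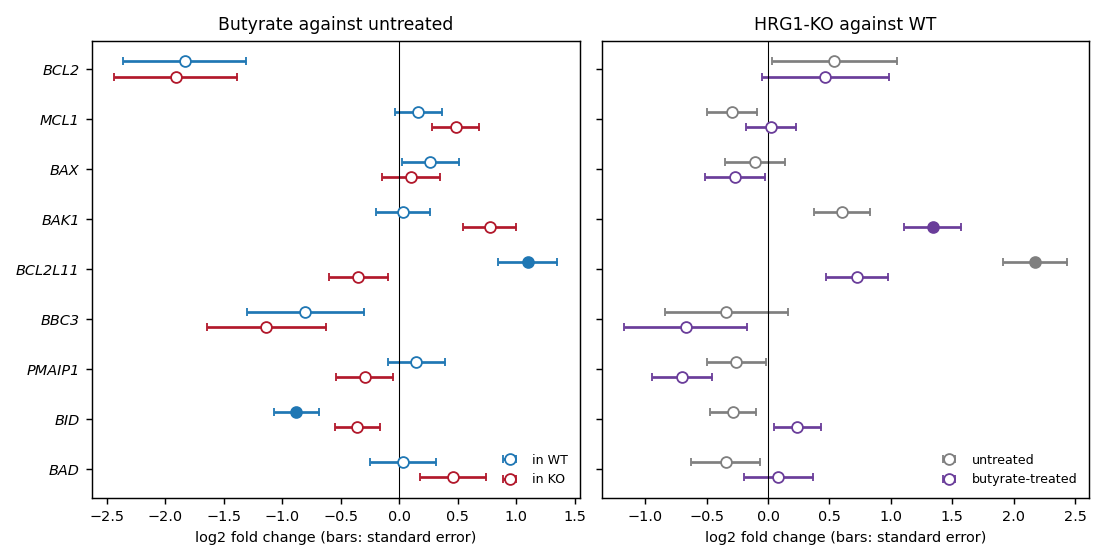
Log2 fold change with its standard error for 9 members, for butyrate against untreated (left, WT above KO) and for KO against WT (right, untreated above treated). Filled symbols passed an edgeR adjusted p under 0.05 and open symbols did not. The filled symbols are BCL2L11 (1.10) and BID (-0.88) for butyrate in WT, BCL2L11 (2.17) for genotype in untreated cells and BAK1 (1.34) for genotype in treated cells.

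BBC3 and PMAIP1 are BH3-only proteins, and PMAIP1 mainly neutralises MCL1. BBC3 (chr19:47220822-47232766, minus strand) held 51.2, 75.8 and 35.8 CPM in untreated WT and 57.0, 19.4 and 17.1 CPM in treated WT. It held 38.8, 43.3 and 46.6 CPM in untreated KO and 20.9, 7.86 and 29.8 CPM in treated KO. Treated KO libraries were all below untreated KO libraries, and treated WT replicate 1 stood above the other treated libraries. The log2 fold changes with butyrate were -0.80 in WT (SE 0.50, edgeR adjusted p 0.442) and -1.14 in KO (SE 0.51, adjusted p 0.236). The WT value was -1.58 without treated WT replicate 1, and none of these passed.

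PMAIP1 (chr18:59899948-59904306, plus strand) held 17.4, 24.0 and 19.0 CPM in untreated WT and 17.5, 24.3 and 25.1 CPM in treated WT. It held 16.4, 16.8 and 17.2 CPM in untreated KO and 10.8, 13.4 and 16.8 CPM in treated KO. KO libraries were below WT libraries under both conditions, without overlap. The genotype difference was -0.26 in untreated (SE 0.24, edgeR adjusted p 0.492) and -0.70 in treated cells (SE 0.24, adjusted p 0.0616). The latter passed with the replicate block (adjusted p 0.0230), without treated WT replicate 1 (-0.86, adjusted p 0.0252) and without treated KO replicate 3 (-0.89, adjusted p 0.0490). The 188 other tested genes of chromosome 18 had medians of -0.53 in untreated and -0.61 in treated cells, and the 2 tested genes within 1000 kb of PMAIP1 medians of -0.81 and -0.85. The part of this in the PMAIP1 values was not tested.

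BAX (the cytosolic pore former, chr19:48954815-48961798, plus strand) ranged from 43.2 to 83.8 CPM over the 12 libraries, and its group means from 50.6 to 65.4 CPM. BAD (a BH3-only protein held inactive by phosphorylation, chr11:64269830-64284704, minus strand) ranged from 7.61 to 15.8 CPM, with group means from 9.80 to 13.4 CPM. The groups overlapped in all 4 comparisons for both genes. Their log2 fold changes lay between -0.27 and 0.27 for BAX and between -0.35 and 0.46 for BAD, with edgeR adjusted p from 0.404 upwards. BAD shares 404 exonic bases with GPR137 on the opposite strand.

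Levels of different members were compared only per kilobase of annotated exon (CPM per kb). MCL1 was highest in all 4 groups, at 72.7 ± 15.5, 81.5 ± 12.6, 59.4 ± 5.11 and 82.9 ± 8.73 CPM per kb (SD, n = 3) in untreated WT, treated WT, untreated KO and treated KO. BAX followed in each, at 35.8 to 46.3 CPM per kb, and the MCL1 and BAX libraries did not overlap in any group. BCL2 was the lowest tested member in all 4, at 0.652 ± 0.269, 0.181 ± 0.0812, 0.947 ± 0.545 and 0.251 ± 0.0782 CPM per kb, in the same order. Between these, the order differed by group.

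In untreated WT the order after BAX was BID, BBC3, BAK1, PMAIP1, BAD and BCL2L11. Here BID overlapped BBC3, BBC3 lay clear of BAK1, BAK1 overlapped PMAIP1 and PMAIP1 overlapped BAD, while BCL2L11 (3.69 ± 0.348 CPM per kb) lay below all of them. In untreated KO BCL2L11 stood at 16.6 ± 1.10 CPM per kb, its libraries overlapping those of BAK1 (18.5 ± 1.38) just above it and lying clear of PMAIP1 (8.01 ± 0.202) just below. In treated KO BAK1 was at 31.7 ± 3.74 CPM per kb, overlapping BAX (38.4 ± 4.37). These levels depend on the annotated exons, since the gene models behind the counts are not given in the sources used here.

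**Figure D4:**
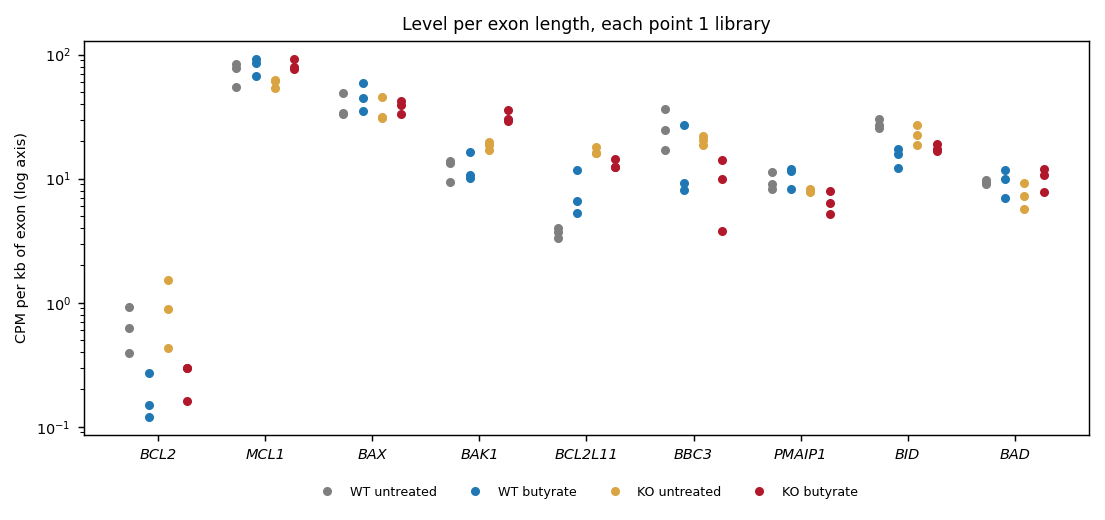
Level per exon length in CPM per kb on a log axis for 9 members, with 1 point per library coloured by group. MCL1 lies highest and BCL2 lowest in every group, and BCL2L11 moves from 3.69 CPM per kb in untreated WT to 16.6 CPM per kb in untreated KO.

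The genes most like the 3 members that differed most over the 4 groups were found by the Pearson correlation of log2 CPM over the 12 libraries, among 11935 other genes with a median of at least 50 counts. These libraries share groups and replicate numbers, so the values describe a common pattern only. For BCL2L11 they were XK (r 0.971), KBTBD6 (0.959) and MICU3 (0.954). For BAK1 they were TLX1 (0.974), DAG1 (0.949) and KLF13 (0.937), and for BCL2 ZNF283 (0.945), USP3 (0.942) and ETFRF1 (0.941).

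A wider set of 76 apoptosis genes in 6 lists, all present in the table, left 69 that were tested. For butyrate in WT 2 passed, 1 in each direction, and for butyrate in KO 4 passed, all higher (2.35% and 3.4% of all genes were called). For KO against WT 10 passed in untreated cells, 2 higher and 8 lower, and 7 in treated cells, 3 higher and 4 lower (22.6% and 19% of all genes). For the difference of the butyrate effects 0 passed in edgeR, 6 having an unadjusted p under 0.05 (4.16% of all genes), and 0 by the DESeq2 Wald test (0.59% of all genes). The median log2 fold change of the 69 was -0.02, 0.01, -0.08 and -0.11 in the 4 comparisons, in the order given.

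Of the list of other BCL2 homologues and BH3 proteins, 14 of 16 were tested. This list also holds BCAP31, which is neither. BIK (a BH3-only protein of the endoplasmic reticulum) rose with butyrate in KO from 0.301 ± 0.0916 to 1.76 ± 0.305 CPM (SD, n = 3), a log2 fold change of 2.55 (edgeR adjusted p 0.0264). In WT its value was 2.12 (adjusted p 0.0506, 0.0274 with the replicate block). The KO call held in 1 of 6 fits leaving out 1 library, being lost without any library other than treated KO replicate 1 (at most 0.110, without treated KO replicate 2). BMF of the same list, named after its values were seen, was not called in edgeR for butyrate in either genotype. Its untreated and treated means were 5.46 ± 5.41 and 37.0 ± 17.4 CPM in WT, and 3.00 ± 1.14 and 18.7 ± 7.33 CPM in KO. These groups did not overlap in either genotype (21.7% and 24.4% of all genes).

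BOK (a BAX-like effector) fell in untreated KO, from 13.3 ± 2.16 to 0.768 ± 0.665 CPM (SD, n = 3), and BCAP31 and BCL2L12 had log2 fold changes of -0.84 and -0.64 (edgeR adjusted p 0.0166 and 0.0327). The BOK call (-4.06, adjusted p 0.00347) held in all 6 fits leaving out 1 library, although untreated KO held only 2 to 43 counts. That of BCAP31 was lost without untreated WT replicate 1 or untreated KO replicate 2 or 3, and that of BCL2L12 without any 1 of the 6 libraries (at most 0.0790 and 0.0963). In treated cells HRK, a BH3-only protein, was higher in KO (4.25, edgeR adjusted p 0.0297), at 2.67 ± 1.87 against 0.135 ± 0.181 CPM, and BCAP31 lower (-0.78, adjusted p 0.0274). Of the 6 such fits, HRK passed only without treated WT replicate 2 or treated KO replicate 1 (at most 0.104, without treated WT replicate 3), and BCAP31 only without treated WT replicate 3 or treated KO replicate 2 (at most 0.0771, without treated KO replicate 3). The HRK mean was higher in KO without butyrate too, at 3.19 ± 1.74 against 0.284 ± 0.332 CPM (SD, n = 3). It was not called there in edgeR. BCL2L1, the survival homologue of erythroid cells, was called in none of the comparisons. It was named after its values were seen, and held 135 ± 25.0, 95.3 ± 51.9, 128 ± 13.7 and 129 ± 18.2 CPM (SD, n = 3) in untreated WT, treated WT, untreated KO and treated KO.

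Downstream of the mitochondrion, all 14 genes of caspases and the apoptosome were tested. In untreated cells the initiator caspase gene CASP9 was lower in KO, at 16.9 ± 3.47 against 36.2 ± 4.92 CPM in WT (SD, n = 3, log2 fold change -1.09, edgeR adjusted p 0.0244). It passed in 2 of 6 fits leaving out 1 library, those without untreated WT or KO replicate 3 (at most 0.0931, without untreated KO replicate 1). In treated cells CYCS, which encodes cytochrome c, was lower in KO (-0.82, edgeR adjusted p 0.0472), passing in 1 of 6 fits, that without treated WT replicate 3 (at most 0.133, without treated KO replicate 3). The CYCS mean was also lower in untreated KO, at 243 ± 59.9 against 380 ± 116 CPM in untreated WT (SD, n = 3). It was not called there in edgeR. For butyrate 0 of the 14 passed in edgeR in either genotype, with 1 and 2 at an unadjusted p under 0.05 in WT and KO (18% and 19.8% of all genes). With the block 1 and 0 were called (8.61% and 11.7% of all genes), and by DESeq2 1 in each (8.43% and 9.74% of all genes).

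Of the inhibitors of apoptosis and their antagonists, 9 of 10 were tested. BIRC3, which ubiquitinates components of death receptor complexes, rose in WT with butyrate by at least 6.75-fold (edgeR adjusted p 0.0414), its untreated WT libraries all holding 2 counts or fewer. It passed in 1 of 6 fits leaving out 1 library, without treated WT replicate 1 (at most 0.167, without treated WT replicate 2). SEPTIN4, whose ARTS isoform antagonises XIAP, rose with butyrate in KO from 0.139 ± 0.113 to 4.21 ± 2.61 CPM (SD, n = 3, edgeR adjusted p 0.0357). It passed in 1 of 6 fits, without treated KO replicate 1 (at most 0.169, without untreated KO replicate 2). In WT SEPTIN4 was at 0.285 ± 0.247 and 3.88 ± 2.65 CPM (edgeR adjusted p 0.0849, 0.00330 with the block), and BIRC3 in KO at 0.298 ± 0.0523 and 2.66 ± 1.30 CPM (adjusted p 0.0557, 0.0195 with the block), untreated and treated. For genotype 0 of 9 passed in edgeR in untreated or treated cells, with 3 and 0 at an unadjusted p under 0.05 (34.6% and 31.6% of all genes). With the block 3 and 0 were called (33% and 29.2% of all genes), and by DESeq2 1 and 0 (28.5% and 25.2% of all genes).

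Among death receptors and adaptors 11 of 15 were tested. TNFSF10, the ligand TRAIL, was higher in KO in untreated cells (7.23 ± 2.57 against 0.731 ± 0.356 CPM, SD, n = 3, log2 fold change 3.28, edgeR adjusted p 0.00101), and likewise after butyrate (2.78, adjusted p 0.00307). TNFRSF21, death receptor 6, was lower in KO in both (-3.87, adjusted p 0.00145, and -4.90, adjusted p 0.000540), at 0.836 ± 0.0583 against 12.3 ± 3.45 CPM in untreated cells. Both genes passed in all fits leaving out 1 library. The treated KO libraries held 0 to 19 counts of TNFRSF21, so the size of its fold change there is uncertain. TNFRSF1A, the TNF receptor, fell with butyrate in WT from 39.6 ± 9.81 to 17.3 ± 0.855 CPM (-1.19, edgeR adjusted p 0.0300), passing in 2 of 6 fits, those without untreated WT replicate 3 or treated WT replicate 1 (at most 0.126, without untreated WT replicate 1). It stood at 38.7 ± 9.86 and 41.0 ± 7.26 CPM in untreated and treated KO, and was higher in KO in treated cells (1.24, adjusted p 0.00386), in all 6 fits. TNFRSF25 was at least 7.68-fold higher in treated KO (edgeR adjusted p 0.0309), with 0 counts in every untreated KO library, and passed in 1 of 6 fits, that without treated KO replicate 1 (at most 0.135, without untreated KO replicate 2). In WT it was at 0.0672 ± 0.116 CPM untreated and 1.16 ± 0.381 CPM treated (edgeR adjusted p 0.105).

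Of 9 genes for MCL1 turnover and mitochondrial partners, VDAC2, a channel that holds BAK1 at the membrane, was lower in KO. Its log2 fold change was -0.57 in untreated (edgeR adjusted p 0.0283) and -0.76 after butyrate (adjusted p 0.00807). The first passed in 2 of 6 fits leaving out 1 library, those without untreated WT replicate 2 or untreated KO replicate 1 (at most 0.0890, without untreated KO replicate 2) and the second in all 6. For butyrate 0 of these 9 passed in edgeR in either genotype, 1 having an unadjusted p under 0.05 in each (18% and 19.8% of all genes). By DESeq2 0 were called in each (8.43% and 9.74% of all genes).

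All 12 genes of the list of upstream regulators of BH3-only genes were tested. The list also holds CDKN1A, the cell cycle inhibitor p21, which is known as a target of p53 rather than a regulator of these genes. Besides FOXO3, CDKN1A was called. It was lower in untreated KO than in untreated WT (2.45 ± 0.968 against 22.6 ± 8.57 CPM, SD, n = 3, log2 fold change -3.19, edgeR adjusted p 0.00228), in all 6 fits leaving out 1 library. With butyrate it rose in KO to 22.7 ± 15.6 CPM (3.20, edgeR adjusted p 0.0179), a call lost without untreated KO replicate 1 or 2 or treated KO replicate 2 (at most 0.0997). In WT the CDKN1A mean with butyrate was also higher, at 46.7 ± 19.1 CPM. It was called in edgeR neither for butyrate in WT nor for genotype in treated cells.

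**Figure D5:**
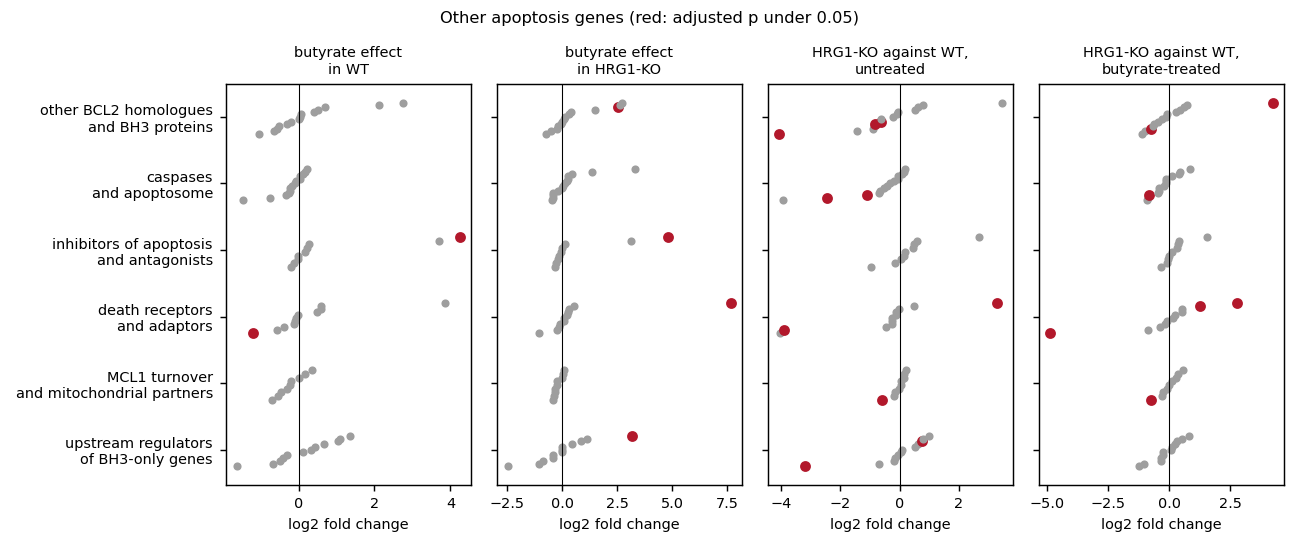
Log2 fold change of the 69 tested apoptosis genes outside the 10 members, by list, in the 4 comparisons, each panel with its own horizontal scale. Red points passed an edgeR adjusted p under 0.05 and grey points did not. The panels hold 2, 4, 10 and 7 red points, and those of BIRC3 (butyrate in WT) and TNFRSF25 (butyrate in KO) are fitted values against groups at or under 3 counts per library.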

How the data were processed

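RNA sequencing was done on 12 libraries of K562 cells. The authors deposited whole-number counts per gene symbol, and this unit was read from the values. The submitters' processing notes name hg38, FastQC 0.12.1 and STAR 2.7.11b without roles, and the counting tool, gene models and use of strand are not given in the sources used here. Columns were assigned through the library names in the labels, with 0 unused. Library totals are in the report, and the limit of 3 counts covers counting error only.

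Counts were analysed in R 4.3.3 with edgeR 4.0.16. Genes passing filterByExpr (minimum count 10) numbered 15805. After TMM scaling, edgeR's quasi-likelihood test (glmQLFit) ran on the 12 libraries together with 4 group coefficients. The 5 contrasts used Benjamini-Hochberg correction across the 15805 genes (threshold 0.05). SE is the log2 fold change divided by the root of F. Two-sided exact permutation tests of 3 libraries against 3 cannot go below p 0.1, so they were not used for calls. Alternatives were library size alone, DESeq2 size factors, the DESeq2 1.42.0 Wald test, other filters, a replicate block, only the groups compared, and libraries left out. Scripts were tested on simulated data. Exon lengths came from GENCODE 29, and neighbours and promoters from RefSeq (GRCh38.p14), which placed 15172 of 15805 tested genes.

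Same-numbered libraries deviated together from their group means. Over the 4 comparisons of groups the correlation of these deviations was at least 0.147 for each same-numbered pair, so the numbers were taken to pair the libraries in the replicate block. The main edgeR calls leave this pairing out, and only the fits with the block use it. For butyrate in WT the main fit called 372 genes and the blocked fit 1361, so verdicts near the threshold depend on this choice. The highest correlation between libraries of different numbers was 0.186, 0.123, 0.0692 and 0.343 for butyrate in WT and KO and genotype in untreated and treated cells, in the last case above the lowest same-numbered value (0.315). Replicates differed by far more than sampling noise (lowest chi-square over its degrees of freedom 37.2), so no library looked like a second deposit of another. Repeat preparations of a culture cannot be told apart from separate cultures by this. The named genes were the 10 members, SLC48A1, at most the 3 genes of a list with the smallest p in each direction and comparison, and the 3 genes most like each of 3 members. The members and lists were chosen with earlier results of these data known. Not every gene this rule names is reported here.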

Additional observations from a re-analysis of the deposited data

Results flagged for a closer look

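For BCL2L11 the log2 fold changes with butyrate had opposite signs in the 2 genotypes, with no overlap between treated and untreated libraries in either (21.7% of all tested genes did not overlap in WT and 24.4% in KO). Every treated WT library was above every untreated WT library (log2 fold change 1.10, edgeR adjusted p 0.0439), and every treated KO library was below every untreated KO library (-0.35, adjusted p 0.476), so the KO value did not pass. The difference of the effects was -1.45 on the log2 scale, with an edgeR adjusted p of 0.418, and did not pass over all genes either.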

How the results depend on the processing

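The count of members called for butyrate in WT was 2, and it was 3 under the replicate block, 3 by DESeq2, 1 without the libraries numbered 1, 0 when only the 2 groups compared were fitted, and 0 to 2 with 1 library left out. For butyrate in KO it was 0, with 2 under the replicate block, 1 with library size alone, 2 by DESeq2, 1 without the libraries numbered 1, and 0 throughout with 1 library left out. For KO against WT it was 1 in untreated cells, with 2 under the replicate block and 2 without the libraries numbered 1. In treated cells it was 1, with 3 under the replicate block, 2 with library size alone, 3 by DESeq2, 3 without the libraries numbered 1, and 1 to 3 with 1 library left out. For the difference of the butyrate effects it was 0, with 1 by DESeq2. Of the other apoptosis genes, 2 were called for butyrate in WT, with 7 under the replicate block, 1 with library size alone, 4 with no filter, 9 by DESeq2, 13 without the libraries numbered 1, 0 with only 2 groups, and 0 to 9 with 1 library left out. For butyrate in KO 4 were called, with 10 under the block, 7 with no filter, 1 with at least 10 counts in every library, 10 by DESeq2, 13 without the libraries numbered 1, 7 with only 2 groups, and 0 to 6 with 1 library left out. For genotype 10 were called in untreated cells, with 19 under the block, 17 without the libraries numbered 1 and 5 to 9 with 1 left out. In treated cells 7 were called, with 13 under the block, 4 with at least 10 counts, 13 without the libraries numbered 1 and 5 to 7 with 1 left out. Without the libraries numbered 1, BAK1 turned to -0.17 for butyrate in WT, MCL1 to -0.087, BAX to 0.014 and BBC3 to 0.023 for genotype in treated cells, and BAX to 0.14 and BBC3 to 0.35 for the difference of the effects. The cause was not tested. With 1 library left out, MCL1 ranged from -0.0035 to 0.29, BAK1 from -0.23 to 0.15 and BAD from -0.14 to 0.20 for butyrate in WT, and BAX from -0.31 to 0.10 for genotype in untreated cells. In treated cells MCL1 ranged from -0.10 to 0.12, BBC3 from -1.12 to 0.086 and BAD from -0.11 to 0.25. The difference of the effects ranged from -0.43 to 0.43 for BCL2, -0.37 to 0.075 for BAX and -0.76 to 0.45 for BBC3. None of these values was called. Over all genes the calls ranged from 63 to 1884, 304 to 2164, 2334 to 5217, 1802 to 4612 and 0 to 86 in the 5 contrasts, beside 372, 537, 3574, 3009 and 0. With 1 library left out they ranged from 43 to 1243, 48 to 833, 2485 to 2844, 2014 to 3477 and 0 to 2. For butyrate in WT the extremes were without untreated replicate 2 (43) and treated replicate 1 (1243), and in KO likewise (48 and 833). Of all genes the replicate block called 8.61%, 11.7%, 33%, 29.2% and 0.019% in the 5 contrasts, in the same order. The DESeq2 Wald test called 8.43%, 9.74%, 28.5%, 25.2% and 0.59%, and the main fit 2.35%, 3.4%, 22.6%, 19% and 0%. The counts of members and other apoptosis genes above are to be read beside these shares. For the remaining settings only ranges over all genes are given, so their counts do not set these genes apart. The replicate block changed no other call of a member than those in the report. Depth limits BCL2A1, and also BIRC3, TNFRSF25, HRK, TNFRSF21 and SEPTIN4, some of whose libraries held 0 counts. It also limits BOK, which held as few as 2 counts in untreated KO.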
